A study of Homo sapiens with 6 samples.

Results

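The miR-320 family was read here as the 6 entries of a table of 1596 mature miRNAs that carry its name, hsa-miR-320a-3p, hsa-miR-320a-5p, hsa-miR-320b, hsa-miR-320c, hsa-miR-320d and hsa-miR-320e, written below without the species prefix. They were taken by name, and the family was chosen by its read counts and fold changes between the treatments, which were already known, so its differences between treatments are a description. Their p-values are not printed, and which members passed a test over the whole table is stated for reference only. The table comes from small RNA libraries of human melanoma cells treated for 24 hours with RSL3 combined with IFN-γ (3 libraries) or with RSL3 alone (3 libraries), so that both groups received RSL3 and untreated cells or cells given IFN-γ alone were not analysed here. RSL3 is a small molecule that inactivates the lipid peroxide reductase GPX4 and drives ferroptosis, an iron-dependent cell death, and IFN-γ is the cytokine by which activated T cells act on tumor cells. The sample labels name the cells as the line A2058 and the paper's text as the line A375, both established human melanoma lines, and which line was sequenced could not be settled. The comparison asks which miRNAs differ when IFN-γ is added to RSL3.

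Most miRNA hairpins are cut out of a long primary transcript by the nuclear enzyme DROSHA and then trimmed by DICER. The hairpin of miR-320a is known as an exception, since its 5′ end is the capped start of its own short transcript, so it needs no cut by DROSHA, leaves the nucleus through exportin 1 and is cut by DICER only. Its 3p strand is the one that is loaded into Argonaute, and it has been reported to target the transferrin receptor TFRC, which brings iron into cells. The entries named b to e come from other loci with near-identical mature sequences, and for these the independence of DROSHA is less well established. No DROSHA was measured or removed in this experiment, so the name says how the family is known, not what these libraries tested.

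Mature sequences are shown because the entries below differ at only a few bases, mostly near the 3′ end, and in their ends. How reads were assigned among the entries is not stated in any source read here. RefSeq on GRCh38.p14 gave sequences for 4 of the 6 members, the exceptions being miR-320a-3p and miR-320a-5p. What separates reads of miR-320a-3p from those of miR-320b to miR-320e was therefore not shown. Capitals mark the seed, bases 2 to 8, which selects targets.
hsa-miR-320b: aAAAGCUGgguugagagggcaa
hsa-miR-320c: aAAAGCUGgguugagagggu
hsa-miR-320d: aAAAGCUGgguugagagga
hsa-miR-320e: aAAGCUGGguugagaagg
hsa-miR-4429: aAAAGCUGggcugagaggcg
The first 3 entries share a seed and their start, and they end after 22, 20 and 19 bases. Counted from the 5′ end of miR-320b, the only difference within the length of miR-320c was C20U, and within that of miR-320d it was G19A, so miR-320b and miR-320c shared their first 19 bases and miR-320b and miR-320d their first 18 bases. MiR-320e, of 18 bases, starts 1 base later and has G17A in the positions of miR-320b, and the later start gives it another seed. Among the 1425 entries with a sequence there was 1 further one with the seed of miR-320b, miR-320c and miR-320d, miR-4429 from chromosome 2, which differs from miR-320b by U11C, G19C and C20G. None of these 1425 entries shared the seed of miR-320e. GC content was 50% for miR-320b, miR-320c and miR-320e and 47.4% for miR-320d, against 60% for miR-4429.

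The loci behind these entries are spread over the genome, and the miR-320b, miR-320c and miR-320d sequences each come from a pair of hairpins, whose reads the table cannot separate. The hairpin stretches below, each 24 bases from the start of the shared AAAAGCUG, show which 3′ ends the genome itself encodes, with capitals where a base differs from MIR320B1.
MIR320B1: aaaagcuggguugagagggcaaac
MIR320B2: aaaagcuggguugagagggcaaaA
MIR320C1: aaaagcuggguugagagggUaGaA
MIR320C2: aaaagcuggguugagagggUaaGA
MIR320D1: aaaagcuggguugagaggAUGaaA
MIR320D2: aaaagcuggguugagaggAGCaGA
MIR320E: aaaagcuggguugagaAggUGaaA
The hairpins differ from MIR320B1 at 1 to 5 of these 24 bases. MIR320E also encodes the base before the annotated start of miR-320e, so the later start of that entry is set by its annotation. On GRCh38, MIR320B1 lies on chromosome 1 from 116671746 to 116671817 on the plus strand, outside any gene of GENCODE 29. MIR320B2 lies on chromosome 1 from 224257040 to 224257110 on the minus strand, within an intron of NVL and on its strand. MIR320C1 lies on chromosome 18 from 21683518 to 21683589 on the plus strand, opposite an intron of ABHD3. MIR320C2 lies on chromosome 18 from 24321675 to 24321746 on the plus strand, opposite an intron of OSBPL1A. MIR320D1, on chromosome 13 from 40727816 to 40727887, and MIR320D2, on chromosome X from 140926160 to 140926231, are both on the minus strand and outside other genes. MIR320E lies on chromosome 19 from 46709282 to 46709354 on the minus strand, within an intron of PRKD2 and on its strand.

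Counts summed over all entries came to 4383940 to 5367150 after RSL3 with IFN-γ (the combined treatment) and 4897890 to 6513382 after RSL3 alone. Of these sums the family took 0.841% to 1.07% after the combined treatment and 0.609% to 1.14% after RSL3. Library totals implied by the authors' normalized signal were lower, at 3835420 to 4615420 after the combined treatment and 4752440 to 5738710 after RSL3. No source read here states how reads matching several entries were assigned, which makes values of single entries uncertain. No other entry of the table had the same 6 counts as a member, but this would not show reads shared in part. The summed counts were 1.085, 1.148 and 1.163 times the implied totals in the combined treatment libraries 1, 2 and 3. In the RSL3 libraries they were 1.038, 1.031 and 1.135 times these totals. Whether reads were counted in several entries, and the part of this in the results, was not tested. As a check of the cell type, 7 miRNAs of melanocytes and melanoma were read. MiR-211-5p, whose host gene TRPM1 is active in melanocytes, was present at 335 ± 50.9 CPM (TMM-scaled counts, explained below) in the combined treatment group and 286 ± 27.8 CPM in the RSL3 group (SD, n = 3 each). Of the others tested, miR-146a-5p averaged 114723 CPM in the combined treatment group and 100133 CPM in the RSL3 group, and miR-204-5p 169.6 ± 7.15 CPM in the combined treatment group and 286 ± 54.0 CPM in the RSL3 group, without overlap but not called. MiR-514a-3p of the melanoma cluster on chromosome X, with 60 to 188 reads in the combined treatment libraries and 224 to 434 reads in the RSL3 libraries, was called lower in the combined treatment group (log2 fold change −1.38), whereas miR-506-3p, miR-508-3p and miR-509-3p of that cluster had 0 to 4 reads in the combined treatment libraries and 1 to 17 reads in the RSL3 libraries. The part of these miRNAs in the results was not tested. A list of 12 miRNAs of blood, liver, muscle and epithelium summed to 380 to 788 CPM in the combined treatment group and 376 to 1540 CPM in the RSL3 group. Of these, miR-1-3p had 1280 CPM in RSL3 replicate 3 and 156 to 255 CPM in the other libraries. MiR-451a and miR-122-5p were highest in combined treatment replicate 2, at 318 and 174 CPM. None of the 12 was at 0 in all libraries, and their part in the results was not tested. In bulk libraries a change in the make-up of the culture and a change within cells cannot be told apart. No source used here says that the 3 libraries of a group were separate cultures, so errors describe how far these libraries lie apart, which may be technical.

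MiR-320a-3p was by far the most abundant member, at rank 19 of 1596 by mean level. Levels are given as CPM, reads per 1000000 after TMM scaling, which corrects library totals for a few very abundant miRNAs. It had 10508, 5996 and 6417 CPM in the combined treatment libraries 1, 2 and 3, against 8376, 11949 and 6533 CPM in the RSL3 libraries 1, 2 and 3. The groups overlapped, with the highest value in an RSL3 library and the lowest in a combined treatment library. Its log2 fold change was −0.23 (standard error 0.300), less than the spread between libraries.

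MiR-320a-5p, the strand opposite to miR-320a-3p in the hairpin, was nearly absent. It had 0, 5 and 1 reads in the combined treatment libraries and 2, 3 and 6 reads in the RSL3 libraries. The 0 reads in combined treatment replicate 1, where all counts summed to 4383940, allow up to 0.684 reads per 1000000 of that sum. Over the 6 libraries 17 reads of the 5p strand stood against 251622 of the 3p strand, or 67.6 per 1000000 reads of both (exact 95% interval 39.4 to 108, for counting error only). It did not pass the filter on low counts and was not tested.

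MiR-320b, miR-320c and miR-320d were each higher in every combined treatment library than in any RSL3 library. MiR-320b had 545, 498 and 529 CPM in the combined treatment libraries, against 238, 365 and 274 CPM in the RSL3 libraries. MiR-320c had 159, 203 and 215 CPM in the combined treatment libraries, against 68.3, 108 and 80.7 CPM in the RSL3 libraries. MiR-320d had 67.2, 121.8 and 109 CPM in the combined treatment libraries, against 31.4, 58.1 and 36.7 CPM in the RSL3 libraries. For miR-320c and miR-320d the lowest combined treatment library was replicate 1 and the highest RSL3 library was replicate 2, whereas the 3 combined treatment libraries lay close together for miR-320b. Log2 fold changes were 0.84 for miR-320b (standard error 0.235), 1.17 for miR-320c (standard error 0.254) and 1.24 for miR-320d (standard error 0.316).

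MiR-320e was the rarest tested member. It had 21.3, 12.5 and 13.1 CPM in the combined treatment libraries, from 88, 73 and 81 reads, against 16.6, 21.2 and 11.0 CPM in the RSL3 libraries, from 84, 95 and 63 reads. The groups overlapped, and the log2 fold change was −0.07 (standard error 0.343).

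The order of levels was miR-320a-3p, miR-320b, miR-320c, miR-320d, miR-320e, miR-320a-5p in each of the 6 libraries. MiR-320a-3p had 12.0 to 35.2 times as many reads as miR-320b. MiR-320c had 1.67 to 2.37 times as many reads as miR-320d, and miR-320d 1.89 to 9.77 times as many as miR-320e. For miR-320c and miR-320d, in CPM, the ranges over all 6 libraries overlapped, since combined treatment replicates 2 and 3 had more miR-320d than RSL3 replicate 1 had miR-320c. Reads were not divided by the length of the mature miRNA.

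Across the 758 miRNAs kept by a filter on low counts, 36 or 4.75% were called by edgeR's quasi-likelihood test at an adjusted p under 0.05, of which 19 or 2.51% were higher and 17 or 2.24% lower in the combined treatment group, and 1 of the 5 tested members, miR-320c, was called higher. The other 4 did not pass. With the replicate number as a block, miR-320c and miR-320d were called, where 10.8% of all tested miRNAs were called and 5.15% were higher. The block rests only on the correlation of same-numbered libraries in these data, as no source says what the numbers stand for. The combined treatment libraries lay wholly above the RSL3 libraries for 3 of the 5 tested members and for 15% of all tested miRNAs, and 29.8% of all tested miRNAs had no overlap in either direction. The median log2 fold change was 0.84 over the 5 tested members and −0.04 over all 758, whose middle 90% ran from −1.28 to 1.20. MiR-320c was at percentile 94.6, miR-320d at 95.5 and miR-320b at 88.4 of all tested fold changes, while miR-320e was at 48.0 and miR-320a-3p at 37.3. Since the family was chosen with this contrast known, nothing is read from these counts. Without RSL3 replicate 1, RSL3 replicate 3 or replicate 2 or 3 of the combined treatment, edgeR called 0 members, beside 0 to 22 of the 782 to 810 miRNAs then tested. An unadjusted p under 0.05 was seen each time for 3 members and for 124 to 172 of all tested miRNAs. DESeq2 called 1 to 3 members and limma 0 or 1, but their calls over all tested miRNAs in these settings were not counted. As the contrast was known, nothing is read from these counts either.

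**Figure D1:**
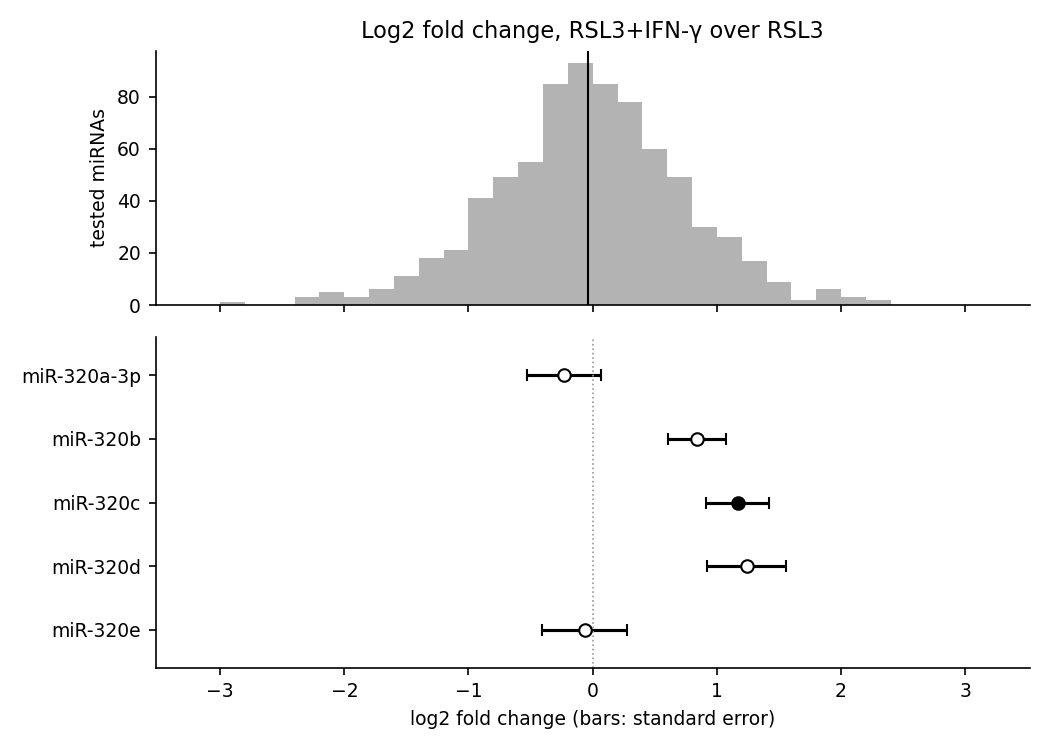
Log2 fold changes, RSL3+IFN-γ over RSL3. The upper panel counts the 758 tested miRNAs in steps of the log2 fold change, with a line at their median of −0.04, and the lower panel gives 5 miR-320 entries with their standard errors, filled where called by edgeR. MiR-320b, miR-320c and miR-320d lie at 0.84 to 1.24, miR-320a-3p and miR-320e near 0.

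The scaling of libraries changed the sign of the small differences but not of the larger ones. Over all tested miRNAs the median log2 fold change ran from −0.13 with upper-quartile factors to 0.33 with library totals only. With library totals only miR-320a-3p was at 0.085 and miR-320e at 0.26, above 0, and without RSL3 replicate 2 they were at 0.018 and 0.15. MiR-320b, miR-320c and miR-320d kept a positive sign under all 16 alternatives, at 0.72 to 1.20, 1.03 to 1.55 and 1.06 to 1.65. Relative to the median of all tested miRNAs, the 4 scalings gave 0.86 to 0.88 for miR-320b, 1.18 to 1.22 for miR-320c, 1.24 to 1.31 for miR-320d, −0.08 to −0.03 for miR-320e and −0.25 to −0.19 for miR-320a-3p.

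A ratio of 2 entries within a library does not depend on how libraries are scaled to each other, so the variants were also set against miR-320a-3p library by library. Per 1000 reads of miR-320a-3p, miR-320b had 51.9, 83.0 and 82.4 reads in the combined treatment libraries, against 28.4, 30.5 and 42.0 reads in the RSL3 libraries. MiR-320c had 15.1, 33.8 and 33.5 reads per 1000 of miR-320a-3p in the combined treatment libraries, against 8.15, 9.06 and 12.3 in the RSL3 libraries. MiR-320d had 6.39, 20.3 and 17.0 in the combined treatment libraries, against 3.74, 4.86 and 5.62 in the RSL3 libraries. In each case combined treatment replicate 1 was nearest to the RSL3 libraries, and the groups did not overlap. How many other miRNAs separate the groups in such a ratio was not computed. In CPM, 29.8% of all tested miRNAs had no overlap in either direction, so nothing is read from this separation.

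The proportion of miR-320e to miR-320a-3p differed less. It had 2.02, 2.08 and 2.04 reads per 1000 of miR-320a-3p in the combined treatment libraries and 1.98, 1.78 and 1.69 in the RSL3 libraries. The groups did not overlap, from which nothing is read either, as the share of other miRNAs doing so was not computed. The exact 95% intervals of its share beside miR-320a-3p reached from 0.161% to 0.261% in the combined treatment libraries and from 0.129% to 0.244% in the RSL3 libraries. These intervals overlap and cover counting error in single libraries only. The mean log2 ratio to miR-320a-3p was higher in the combined treatment group by 1.09 for miR-320b, 1.41 for miR-320c and 1.48 for miR-320d, with within-group SDs of 0.347, 0.521 and 0.669, and by 0.18 for miR-320e, with an SD of 0.0840. Within same-numbered libraries 1, 2 and 3 the log2 ratio of miR-320c was higher in the combined treatment by 0.89, 1.90 and 1.44, and that of miR-320e by 0.03, 0.23 and 0.27.

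Together miR-320b to miR-320e made up 7.01%, 12.2% and 11.9% of the reads of these entries and miR-320a-3p in the combined treatment libraries, against 4.06%, 4.42% and 5.81% in the RSL3 libraries. The exact 95% interval was 6.78% to 7.25% in combined treatment replicate 1, the lowest of its group, and 5.58% to 6.04% in RSL3 replicate 3, the highest of its group. The log2 ratio of the 4 summed variants to miR-320a-3p was −3.15 ± 0.499 in the combined treatment group and −4.34 ± 0.284 in the RSL3 group (SD, n = 3 each), a 2.27-fold difference. With 3 libraries a group the smallest exact two-sided permutation p would be 0.1, and none is given since the contrast was known.

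The 5 tested members varied across the 6 libraries in 2 sets. On log2(CPM + 1), miR-320b, miR-320c and miR-320d had Pearson correlations of 0.902 to 0.978 with each other, and miR-320a-3p and miR-320e one of 0.956, while correlations between the sets ran from −0.32 to 0.13. MiR-320a-5p had too few reads to place. The correlations run across both treatments without removing the group means, so the fold changes given above enter them. They describe 6 libraries scaled together, and no p is given. The variants of the first set still differed among themselves. Reads of miR-320b per read of miR-320c were 3.43, 2.45 and 2.46 in the combined treatment libraries and 3.49, 3.37 and 3.40 in the RSL3 libraries, so that 2 of the 3 combined treatment libraries were below all others. Reads of miR-320c per read of miR-320d were 2.37, 1.67 and 1.98 in the combined treatment libraries and 2.18, 1.86 and 2.20 in the RSL3 libraries, and these groups overlapped.

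The seed partner hsa-miR-4429 was rare, with 19, 37 and 33 reads in the combined treatment libraries and 12, 14 and 14 reads in the RSL3 libraries. Its groups did not overlap and its log2 fold change was 1.03 (standard error 0.411), but it did not pass the test. It had 1 read per 32.1 to 40.4 reads of miR-320c in the combined treatment libraries and per 28.8 to 34.6 in the RSL3 libraries. Outside the family, the pattern over the 6 libraries most like that of miR-320a-3p, among 468 candidates averaging 10 CPM or more, was that of miR-7974 (Pearson correlation 0.969), miR-516b-5p (0.956) and miR-19b-1-5p (0.955). For miR-320c it was that of miR-193a-3p (0.996), miR-345-5p (0.989) and miR-1285-3p (0.988), whose log2 fold changes were 1.38, 1.15 and 0.70. Here too the correlations run across both treatments, so the difference between the groups enters them.

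MiRNAs of higher GC content tended to have higher fold changes in these libraries, with a Spearman correlation of 0.469 across 679 tested miRNAs with a sequence, which are not independent replicates. Since 4 of the 6 members had a sequence, below 80%, a check of GC content over the whole family is void. For the variants alone, removing this trend in each library left log2 fold changes of 0.77 for miR-320b, 1.098 for miR-320c, 1.23 for miR-320d and −0.13 for miR-320e. No member was then called by edgeR, beside 5 of all 679 miRNAs tested this way. An unadjusted p under 0.05 was seen for miR-320b, miR-320c and miR-320d and for 157 of the 679. With the block as well, miR-320c and miR-320d were called, beside 17 of the 679. No other tool was run on the corrected counts. At the same GC content of 50%, log2 fold changes were 0.84 for miR-320b, 1.17 for miR-320c and −0.07 for miR-320e, which rests on 63 to 95 reads a library. The part of GC content in the fold changes of the members was not tested.

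Other miRNAs made without DROSHA were set beside the family from a list of miR-484, which also has a capped hairpin, and short-intron miRNAs (mirtrons), whose hairpins are released by splicing. It had 12 entries, of which 6 were tested, and edgeR called 0 of them in either direction, beside 4.75% of all tested miRNAs, so that a count of 0 among 6 is near the background. An unadjusted p under 0.05 was seen for 2 of the 6 and for 196 of all 758. DESeq2 and limma also called 0 of the 6, beside 96 and 51 of all 758. MiR-877-5p, a mirtron of ABCF1 and the most abundant, had 796, 765 and 738 CPM in the combined treatment libraries, against 972, 1290 and 637 CPM in the RSL3 libraries. MiR-484 had 246, 268 and 396 CPM in the combined treatment libraries, against 446, 348 and 620 CPM in the RSL3 libraries. Their log2 fold changes were −0.33 and −0.64, and the median of the 6 was −0.03. The list thus held entries on the side of miR-320a-3p and, at 0.98 and 0.93, miR-1229-3p and miR-1226-3p, which were rare.

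The miR-378 family has the same make-up, with 1 abundant miRNA, miR-378a-3p of the PPARGC1B gene, and rarer entries named by letter. Of its 11 tested entries 2, miR-378c and miR-378e, were called higher and none lower, beside 2.51% higher and 2.24% lower among all tested miRNAs, and the median log2 fold change was 0.80. DESeq2 called 4 of the 11, beside 12.7% of all tested miRNAs, and the replicate block also 4, beside 10.8%. MiR-378a-3p had 13553, 18997 and 15031 CPM in the combined treatment libraries, against 9496, 15227 and 10622 CPM in the RSL3 libraries, a log2 fold change of 0.43, whereas that of miR-320a-3p was −0.23. The 9 lettered entries summed to 272 to 314 reads per 1000 of miR-378a-3p in the combined treatment libraries and 156 to 221 in the RSL3 libraries, a 1.599-fold difference beside the 2.27-fold one in the miR-320 family. By entry the difference was 2.71-fold for miR-378e, 2.56-fold for miR-378j (4 to 31 reads), 1.89-fold for miR-378c and 1.88-fold for miR-378d. For the other lettered entries it was 1.09-fold to 1.37-fold. In the miR-320 family it was 2.14-fold for miR-320b, 2.66-fold for miR-320c, 2.78-fold for miR-320d and 1.13-fold for miR-320e. Both families were chosen with their values known, and the difference between them was not tested.

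**Figure D2:**
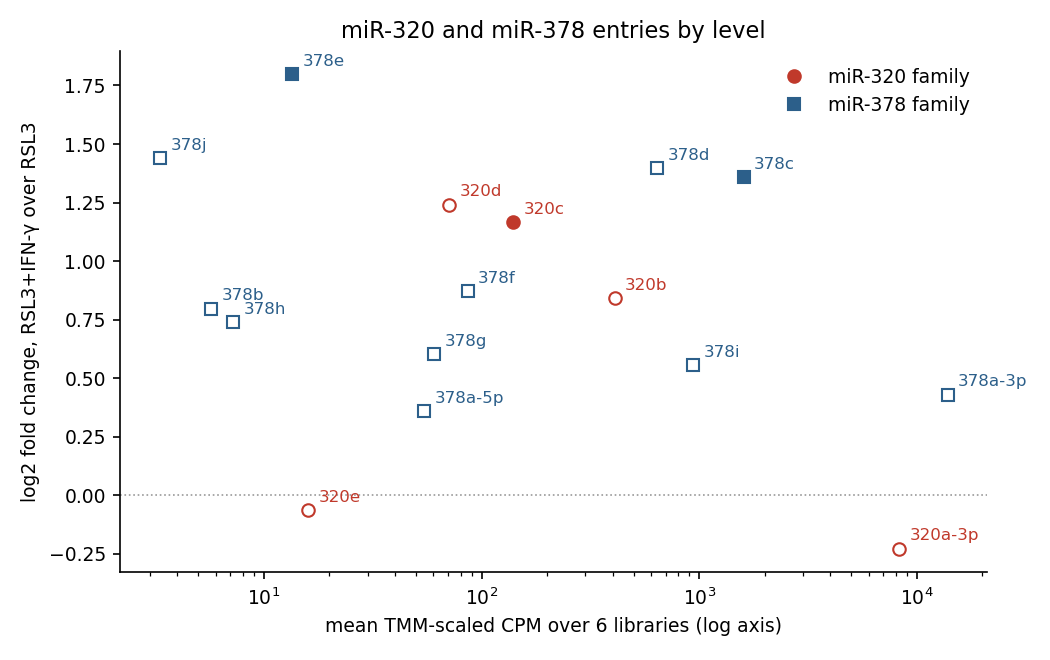
Log2 fold change, RSL3+IFN-γ over RSL3 (vertical axis), against mean TMM-scaled CPM over 6 libraries (horizontal log axis) for 5 miR-320 entries (circles) and 11 miR-378 entries (squares), filled where called by edgeR. The most abundant entry of each family, at −0.23 and 0.43, lies below miR-320b to miR-320d and miR-378c to miR-378f.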

How the data were processed

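Small RNA libraries (RSL3 with IFN-γ, n = 3; RSL3, n = 3) were grouped by the sample labels. The table deposited by the authors gives raw counts for each mature miRNA in each library and a normalized signal, scaled to a library total, that was not tested. Its log2 fold change, linear fold and p-value columns, deposited by the authors for the same comparison, were not used. Tools named by the submitters' processing notes were bcl2fastq, Bowtie 1.1.1 and edgeR, with build GRCh38. The miRBase release and the handling of multi-mapping reads are not stated in any source read here, and labels and paper name different library kits.

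The analysis used R 4.3.3 and edgeR 4.0.16. The two-sided quasi-likelihood test with TMM scaling and Benjamini-Hochberg adjustment ran on the 758 of 1596 miRNAs that passed filterByExpr (count 10, total 15), with calls at an adjusted p under 0.05. Alternatives were other scalings and filters, DESeq2 1.42.0, limma 3.58.1 on log2(CPM + 5), the replicate number as a block, GC trends removed by loess (span 0.75) and leaving out each library. Same-numbered libraries deviated together (correlations 0.227, 0.217 and 0.207 across 758 miRNAs), although no source says what the numbers stand for. No pair of libraries was a copy, with a chi-square of 125 or more for each degree of freedom. The test was checked on simulated data, where edgeR called 49.8% of miRNAs given a log2 fold change of 1 in either direction and 94.9% of those given 2. False ones made up 4.64% of its calls. A change near 1 could thus be missed, so an entry that did not pass may still differ. The simulated counts held neither the shared deviations of same-numbered libraries nor a GC trend. The rate of false calls in the real counts is therefore not known. Exact 95% intervals cover counting error only. Sequences came from RefSeq (GRCh38.p14), which matched 1425 of 1596 entries by name, and gene overlaps from GENCODE 29. The members, the lists and the rule for miRNAs named (members, seed partners, the compared lists and the 3 miRNAs most like miR-320a-3p and miR-320c) were chosen with earlier results of these data known.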

Additional observations from a re-analysis of the deposited data

How the results depend on the processing

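The number of miR-320 members called, 1 with all libraries, was 2 with DESeq2 size factors or the replicate block, and 3 with library totals only, no filter on low counts, a mean of at least 10 CPM, DESeq2's test or limma, and 0 to 3 with 1 library left out. The number of miRNAs called in the whole table, 36, was 71 with library totals only (60 higher, 11 lower), 106 with no filter, 96 by DESeq2, 82 with the replicate block, 5 with the GC trend removed and 17 with both, and 0 to 95 with 1 library left out. With DESeq2 size factors it was 46, with a mean of at least 10 CPM 46 of 472, and by limma 51. The 0 came from edgeR when RSL3 replicate 1 was left out, where 124 had an unadjusted p under 0.05. Of the members DESeq2 then called 1 and limma 0, and their calls over the whole table were not counted. Upper-quartile factors gave 15 higher and 24 lower. The cause of these moves was not tested.

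MiR-320a-3p changed sign to 0.085 with library totals only and ran from −0.54 to 0.018 with 1 library left out. MiR-320e changed sign to 0.26 with library totals only, and to 0.065, 0.035 and 0.15 when combined treatment replicate 2, combined treatment replicate 3 or RSL3 replicate 2 was left out, the lowest value being −0.35. The share of variant reads, 5.62 percentage points higher in the combined treatment group, was 2.58 points higher for miR-320c and miR-320d only, since fewer reads enter, and 4.69 to 7.30 with 1 library left out. MiR-320e rests on 63 to 95 reads a library, the fewest of the tested members.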
